A study of Saccharomyces cerevisiae with 3 samples.

Results

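Genes for solute carriers of the mitochondrial inner membrane were examined in budding yeast treated with the fungicide fluazinam. The genes were chosen by name through the array's gene annotation, by a rule that uses no measured value, although the list was drawn up with earlier results of these data known. It holds 36 symbols, and since YIA6 and NDT1 are names of the same gene, they made a set of 35 genes. Of these, 33 were among the 5203 genes named on the array, with 1 probe each. LEU5 (YHR002W) and YMC1 (YPR058W) were not analysed here. A value was given on all 3 arrays for 26 genes, which were tested, and on 2 arrays for 6, while SFC1 (YJR095W), the succinate and fumarate carrier, had a probe and no value. The name of the family holds for 30 of the 35 genes. The other 5 encode known proteins of other places or kinds: POR1 and POR2 are porins of the mitochondrial outer membrane, VHC1 is a cation and chloride cotransporter of the vacuole, YMD8 resembles nucleotide sugar transporters of the secretory pathway, and AIM46 encodes a mitochondrial protein not known as a carrier. They were kept because the list holds them, and are given apart.

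The inner membrane is nearly closed to charged metabolites, so each passes through a carrier with its own substrates. Most carriers exchange 1 substrate for another: the ADP/ATP carriers bring ADP in and take ATP out, the dicarboxylate carrier exchanges malate or succinate for phosphate, and others move the intermediates of amino acid synthesis, cofactors made in the cytosol, or iron. An uncoupler carries protons across the same membrane and so spends the gradient that drives several of these exchanges. Fluazinam is a weak acid known as such an uncoupler.

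Cultures of Saccharomyces cerevisiae S288C, the standard laboratory strain, grew in YPD, a rich medium with glucose, at 25 C. Treated cultures of 100 ml received 1.5 uM fluazinam in exponential growth, at an optical density of 1, and were harvested after 2 h; untreated cultures of the same strain and medium grew on for the same 2 h. PolyA RNA of both was hybridised together on 3 two-colour arrays, called replicates 1 to 3, with treated cDNA in Cy5 and untreated cDNA in Cy3 on each. The series describes the arrays as independent biological samples. All arrays had the same dye orientation, and a gene's own dye bias cannot be told apart from the treatment.

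The deposited values were signed log ratios without a stated base or direction. Here they are taken as log2(treated/untreated). That direction is likely, since the treated sample is channel 1 and Cy5, but not settled, and if it were turned each rise below would be a fall. A natural logarithm would make each fold larger. Values were present for 71.2% to 83.6% of the 6272 probes of an array. Across the 3802 features with 3 values, genes or unnamed probes, Pearson correlations between arrays were 0.434 to 0.629, a description across genes, which are not replicates. Each mean log2 ratio was tested against 0 with limma, and p-values were adjusted over all 3802 features by Benjamini and Hochberg's method; 299 features passed at 0.05, or 7.86%. In RNA from whole cultures, a change in the amount per cell and a change in the number of cells that hold a transcript cannot be told apart.

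Of the 26 listed genes tested, the carnitine carrier gene CRC1 and the dicarboxylate carrier gene DIC1 rose and none fell. That is 7.69% of them beside 7.86% of all features (3.39% higher and 4.47% lower), a share near the background. Without replicate 2, 6 of the 26 rose and none fell, where 17.3% of all features passed (7.31% higher and 9.97% lower). After quantile normalization 4 rose, beside 4.66% of all features that were higher, and with each sub-grid's median subtracted 5 rose, beside 4.31%. With an unadjusted limma p under 0.05 there were 8 of the 26 (30.8%), all with higher values, beside 29.7% of all features, where 12.7% were higher and 17% lower. The median of the 26 mean log2 ratios was 0.48, beside a median of -0.0049 over all features tested (array medians of the members 0.42, 0.49 and 0.38 on replicates 1 to 3). Without replicate 2 the members' median was 0.30. A mean above 0 was found for 21 of the 26, or 80.8%, beside 49.8% of all features. Values above 0 on all 3 arrays were found for 11 of the 26 (42.3%) beside 25.2% of all features, and values below 0 on all 3 arrays for 1, FLX1 (3.85%), beside 27.1%. The 21 tested genes of the inner membrane family alone had a median of 0.36, with array medians of 0.32, 0.55 and 0.31, and 7 of them (33.3%) were above 0 on all 3 arrays. Of these 21, 5 (23.8%) had an unadjusted limma p under 0.05, beside 29.7% of all features. AIM46 and POR1, outside the family, were among the 6 without replicate 2 and the 5 with sub-grid medians subtracted. AIM46 was also among the 4 after quantile normalization. No test of the list against other genes was made.

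**Figure D1:**
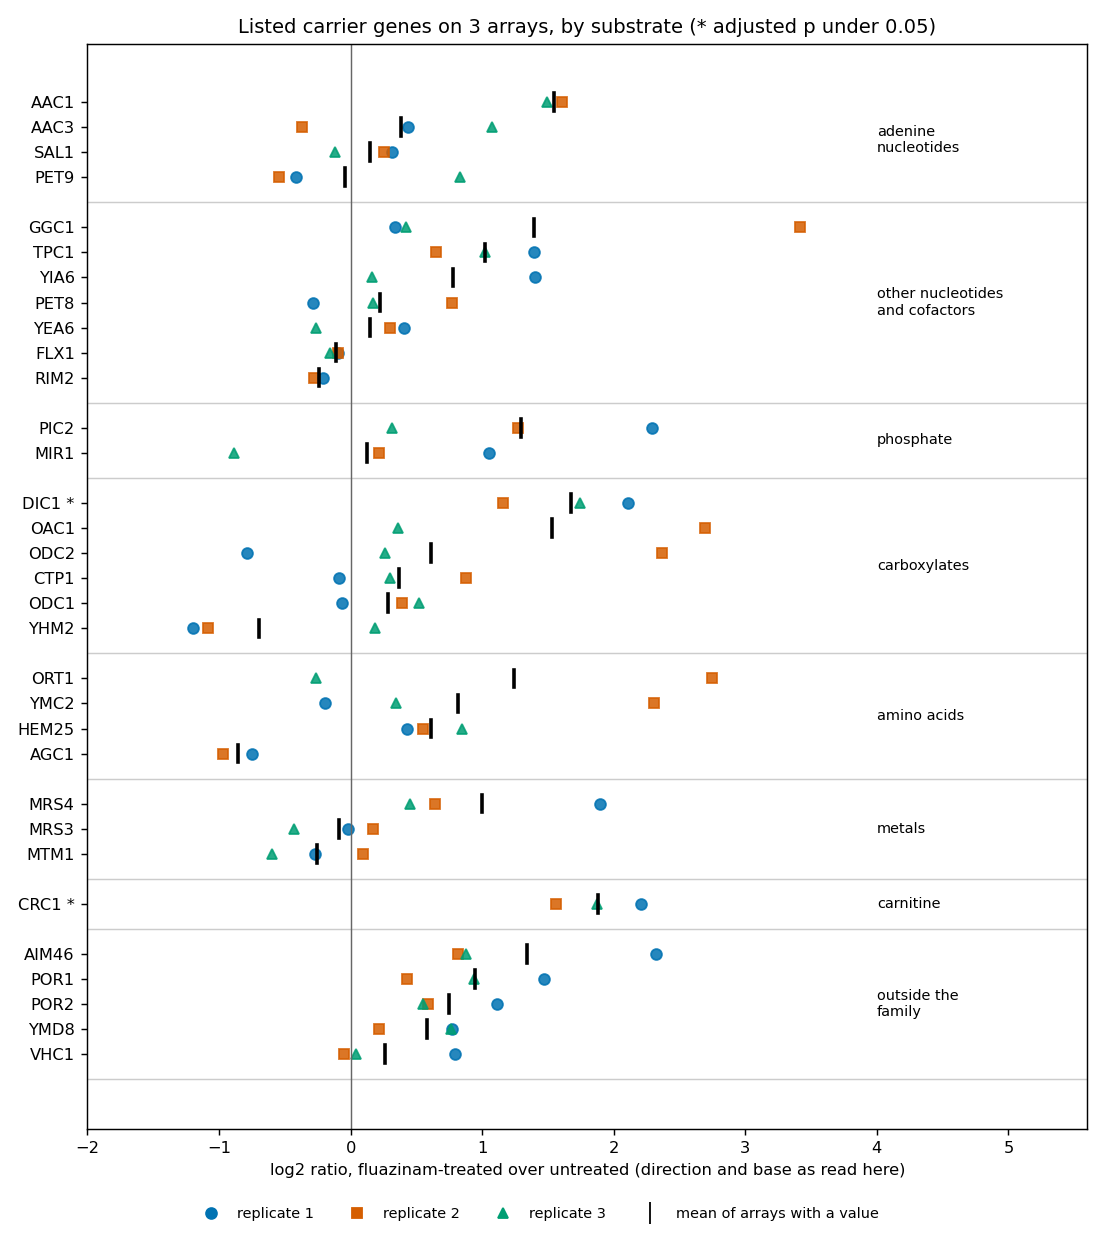
Log2 ratio of treated over untreated cells (horizontal axis) for the 32 listed genes with a value, grouped by substrate; circles, squares and triangles are replicates 1, 2 and 3, and the black bar is the mean of the arrays with a value. CRC1 and DIC1, marked with an asterisk, lie between 1.16 and 2.21 on every array, while GGC1, OAC1, ODC2, ORT1 and YMC2 each have a replicate 2 value above 2 that stands apart from their other values.

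The carnitine carrier CRC1 (YOR100C) had the highest mean of the 26. It brings acetylcarnitine, the carrier form of acetyl units from peroxisomes and cytosol, into mitochondria. Its log2 ratios were 2.21, 1.56 and 1.87 on replicates 1 to 3. All 3 arrays were well above 0 and close to one another. The mean was 1.88 ± 0.32 (SD, n = 3), a 3.69-fold rise with a 95% interval of 1.25 to 2.52 on the log2 scale (limma adjusted p = 0.0253). By its mean CRC1 was at rank 62 of the 3802 features and at rank 46 of the 129 that rose. The call was lost without replicate 1 (1.72, limma adjusted p = 0.0814) and without replicate 3 (1.89, limma adjusted p = 0.0601), with 11 and 0 features past the threshold in those fits.

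Carboxylate carriers did not move as 1 group. Of 7 listed, 5 were tested, with a median of 0.36 and means from -0.70 to 1.67, and DIC1 alone rose. DIC1 (YLR348C), the dicarboxylate carrier that supplies mitochondria with malate or succinate in exchange for phosphate, had log2 ratios of 2.11, 1.16 and 1.74 on replicates 1 to 3. Its values overlapped with those of CRC1 and were all far from 0. The mean was 1.67 ± 0.48, a 3.19-fold rise with a 95% interval of 0.99 to 2.35 (limma adjusted p = 0.0277), at rank 92 of all features and rank 68 of those that rose. Without replicate 1 it was at 1.45 (limma adjusted p = 0.0926), and without replicate 3 at 1.64 (limma adjusted p = 0.0715).

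The other carboxylate carriers had values on both sides of 0. YHM2 (YMR241W), which exchanges citrate for oxoglutarate, was lowest, with log2 ratios of -1.20, -1.08 and 0.18 on replicates 1 to 3. Replicates 1 and 2 were low and replicate 3 was not, and the mean of -0.70 ± 0.77 did not pass (limma adjusted p = 0.226). CTP1, the citrate carrier, was at 0.36 ± 0.48 and ODC1, an oxodicarboxylate carrier that moves oxoglutarate and oxoadipate, at 0.28 ± 0.31. ODC2, its paralogue, was at -0.78, 2.36 and 0.26, so its mean of 0.61 rested on replicate 2. OAC1, the carrier of oxaloacetate and of the leucine precursor isopropylmalate, lacked a replicate 1 value and was at 2.69 on the second array and 0.36 on the third. For both genes replicate 2 was far above the rest.

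Among adenine nucleotide carriers none of the 3 tested passed. PET9 (YBL030C), the major ADP/ATP carrier of growing cells, had log2 ratios of -0.41, -0.54 and 0.83 on replicates 1 to 3, and a mean of -0.04 ± 0.76 with a 95% interval of -0.85 to 0.76. AAC3 (YBR085W), the form known from cells without oxygen, was at 0.44, -0.37 and 1.07, and SAL1 (YNL083W), a calcium-dependent exchanger of ATP-Mg and phosphate, at 0.32, 0.25 and -0.12. The values of these 3 genes lay on both sides of 0, and for PET9 and AAC3 replicate 3 was the highest. AAC1 (YMR056C), the minor form, had no value on replicate 1 and was high on both others, at 1.60 and 1.49. It was not among the genes tested. When features with values on at least 2 arrays were tested, its mean of 1.55 ± 0.08 (n = 2), 2.92-fold, had a limma adjusted p of 0.0551 and a 95% interval of 0.77 to 2.33. That was the smallest among the listed genes with 2 values, and none of them passed. OAC1, ORT1, AGC1, YIA6 and RIM2 ranged from limma adjusted p = 0.159 (AGC1) to limma adjusted p = 0.654 (RIM2).

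Carriers of other nucleotides and of cofactors numbered 8, of which 5 were tested and none passed. TPC1 (YGR096W), which takes the cofactor thiamine pyrophosphate into mitochondria, had log2 ratios of 1.40, 0.65 and 1.02. All 3 were above 0, and the mean of 1.02 ± 0.37 (2.03-fold, 95% interval 0.38 to 1.67) missed the threshold at a limma adjusted p of 0.0659. TPC1 passed after quantile normalization (limma adjusted p = 0.0496), after sub-grid medians were subtracted (limma adjusted p = 0.0450) and without replicate 2 (limma adjusted p = 0.0325), and its limma adjusted p was 0.261 without replicate 1 and 0.159 without replicate 3. GGC1 (YDL198C), the GTP/GDP carrier, was at 0.34, 3.41 and 0.42: replicates 1 and 3 were close, and replicate 2 was far above them. Its mean of 1.39 ± 1.75 had a 95% interval of -0.0045 to 2.79 (limma adjusted p = 0.169), and without replicate 2 it was 0.38.

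FLX1, the carrier of the flavin cofactor FAD, was the steadiest of the group, with log2 ratios of -0.10, -0.09 and -0.15 and a mean of -0.11 ± 0.04. Its 95% interval ran from -0.70 to 0.48, so these 3 arrays leave a change within that range possible. PET8, which imports S-adenosylmethionine, was at 0.22 ± 0.53, and YEA6, one of the NAD carriers, at 0.15 ± 0.36. The other NAD carrier, YIA6 (also NDT1), had values of 1.40 on replicate 1 and 0.16 on replicate 3. RIM2, a pyrimidine nucleotide carrier, had -0.21 on replicate 1 and -0.28 on replicate 2.

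The phosphate carriers differed from each other on each array. PIC2 (YER053C), a minor phosphate carrier that also transports copper, had log2 ratios of 2.29, 1.27 and 0.31 on replicates 1 to 3. The mean was 1.29 ± 0.99 (2.45-fold, 95% interval 0.37 to 2.22) and did not pass (limma adjusted p = 0.0855), although it did without replicate 2 (1.30, limma adjusted p = 0.0427). Without replicate 1 PIC2 was at 0.79 (limma adjusted p = 0.315), and without replicate 3 at 1.78 (limma adjusted p = 0.0677). MIR1 (YJR077C), the main phosphate carrier, was at 1.05, 0.22 and -0.88, with a mean of 0.13 ± 0.97. Both genes were highest on replicate 1 and lowest on replicate 3, and MIR1 was below PIC2 by 1.24, 1.06 and 1.19 on the log2 scale on the 3 arrays.

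Amino acid carriers were sparsely measured: of 5 listed, 2 were tested and neither passed. HEM25 (YDL119C), the glycine carrier that serves the first step of haem synthesis, had log2 ratios of 0.43, 0.55 and 0.85. The values were close together and above 0 on each array, and the mean of 0.61 ± 0.21 (95% interval -0.0012 to 1.22) had a limma adjusted p of 0.169. YMC2 (YBR104W), a carrier placed here with the amino acids whose substrate is less settled, was at -0.19, 2.30 and 0.35, again with replicate 2 apart (mean 0.82 ± 1.31, limma adjusted p = 0.290). ORT1 (YOR130C), which exports ornithine for arginine synthesis, had 2.74 on replicate 2, -0.26 on replicate 3 and no value on replicate 1. AGC1, the aspartate and glutamate carrier, was low on both arrays with a value, at -0.75 and -0.97.

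Of the metal carriers, all 3 were tested and none passed. MRS4 (YKR052C), a carrier that brings iron into mitochondria, was at 1.90, 0.64 and 0.45 on replicates 1 to 3. Its mean of 1.00 ± 0.79 had a 95% interval of 0.18 to 1.82 (limma adjusted p = 0.111). Replicate 1 was high against the other two arrays, and without it the mean was 0.55. MRS3 (YJL133W), its paralogue with the same substrate, was at -0.02, 0.17 and -0.43, and MTM1, first known for the manganese supply of the mitochondrial superoxide dismutase, at -0.27, 0.10 and -0.60. Values of both lay near 0, below those of MRS4 on each array.

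The 5 listed genes outside the family all had means above 0, from 0.26 to 1.34, with a median of 0.75, and none passed. AIM46 (YHR199C) was at 2.32, 0.82 and 0.88, and its mean of 1.34 ± 0.85 had a 95% interval of 0.49 to 2.19 (limma adjusted p = 0.0663). It passed with a common median absolute deviation (limma adjusted p = 0.0477), after quantile normalization (0.0446) or subtraction of sub-grid medians (0.0276), and without replicate 2 (0.00902), as well as in the fit with robust moderation. Without replicate 1 its mean was 0.85 (limma adjusted p = 0.253), and without replicate 3 it was 1.57 (limma adjusted p = 0.100). POR1 (YNL055C), the main porin, was at 1.47, 0.43 and 0.94 (mean 0.95 ± 0.52, limma adjusted p = 0.0912) and POR2 (YIL114C), the minor one, at 1.11, 0.59 and 0.55 (mean 0.75 ± 0.31, limma adjusted p = 0.115). POR1 passed after sub-grid medians were subtracted (1.38, limma adjusted p = 0.0383) and without replicate 2 (1.20, limma adjusted p = 0.0344), and was at 0.68 without replicate 1 (limma adjusted p = 0.345) and 0.95 without replicate 3 (limma adjusted p = 0.205). Both porins were above 0 on each array, YMD8 (0.58 ± 0.32) also, and VHC1 (0.26 ± 0.46) was not.

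Several carriers were high on replicate 2 alone. These were picked out after their values were seen, so they are described with no test. Log2 ratios above 2 on replicate 2 were found for GGC1, OAC1, ODC2, ORT1 and YMC2, 5 of 31 listed genes with a value there, beside 1.98% of 5152 features. On the other arrays these 5 genes lay between -0.78 and 0.42. The remaining 26 genes had replicate 2 values from -1.08 to 1.60. The probes of the 5 lie in 5 different sub-grids of the layout inferred from probe numbers, and after each sub-grid's median was subtracted their replicate 2 values were 2.10 to 3.22. The probes of CRC1 and DIC1, the genes that passed, lie in the same sub-grid. With sub-grid medians subtracted their means were 1.64 (limma adjusted p = 0.0201) and 1.43 (limma adjusted p = 0.0249). The part of array position in these values was not tested. On replicate 1, 4 of 29 genes were above 2 (CRC1, DIC1, PIC2 and AIM46) beside 2.4% of features, and on replicate 3 none of 30 was, beside 1.9%. Across the 26 tested members, Pearson's r with replicate 2 was 0.188 for replicate 1 and 0.205 for replicate 3, and replicates 1 and 3 had an r of 0.487, given as a description across genes that share the same arrays. Over all 3802 features replicate 2 also had the lower values, 0.507 with replicate 1 and 0.434 with replicate 3, beside 0.629 for the other two arrays.

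**Figure D2:**
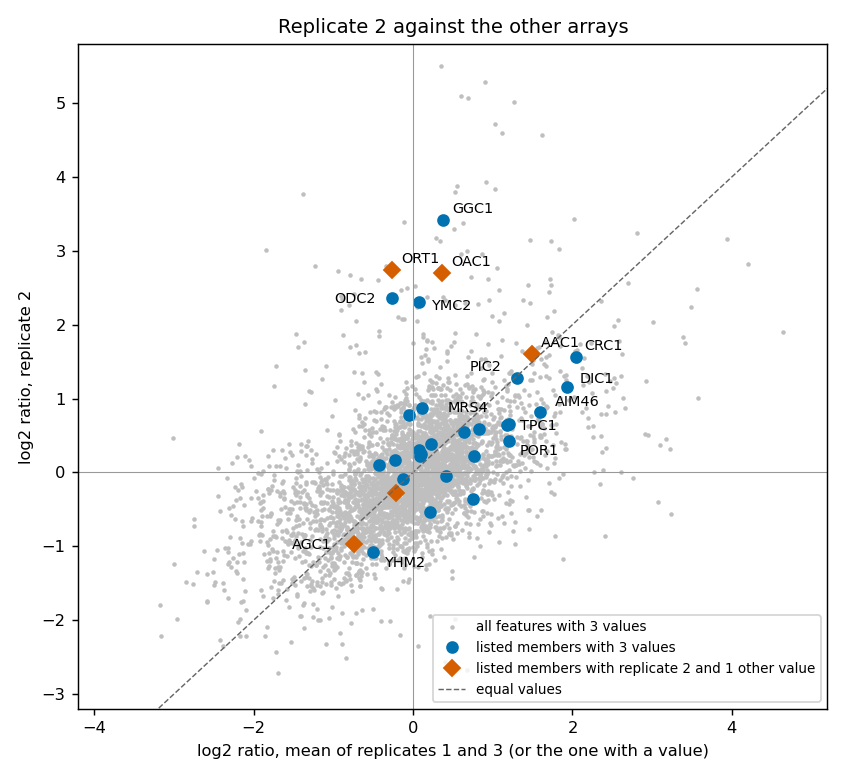
Log2 ratio on replicate 2 (vertical axis) against the mean log2 ratio of replicates 1 and 3, or of the 1 of them with a value (horizontal axis); grey points are the 3802 features with 3 values, blue circles the 26 listed genes with 3 values, orange diamonds listed genes with replicate 2 and 1 other value, and the dashed line marks equal values. GGC1, OAC1, ODC2, ORT1 and YMC2 lie at 2.30 to 3.41 on replicate 2 and near 0 on the horizontal axis. CRC1, DIC1, AAC1 and PIC2 are high on both.

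The synthesis pathways that use the substrates of some of these carriers also differed on replicate 2. Arginine synthesis makes ornithine in mitochondria and uses it in the cytosol after ORT1 has exported it. The 3 of 7 genes of that pathway tested, ARG2 and ARG8 of the mitochondrial steps and ARG1 of a cytosolic one, had array medians of 0.49, 2.24 and 0.12, and none passed. Lysine synthesis genes, whose pathway shares oxodicarboxylates with ODC1 and ODC2, had array medians of -1.15, 2.34 and -0.27 over 7 of 7, and none passed. LYS1 had the largest mean there (1.44 ± 1.62, limma adjusted p = 0.137), with 0.73, 3.29 and 0.31 on replicates 1 to 3. Leucine synthesis genes, whose intermediate OAC1 can carry, had array medians of -0.85, 1.37 and -0.63 over 3 of 4. In each of these lists the replicate 2 median was the highest of the 3. That order alone was not particular to them. It was also found for the listed carriers, haem synthesis, the pyruvate carrier, and succinate dehydrogenase and fumarase. LEU2, the isopropylmalate dehydrogenase, rose (1.90 ± 0.28, limma adjusted p = 0.0249), with 1.91, 2.18 and 1.62. The other tested leucine genes did not pass. LEU1 was at -3.31, 0.47 and -2.72 (limma adjusted p = 0.119), and LEU9 had a mean of -0.04 ± 1.22. High replicate 2 values were not confined to these partner lists. HIS4, of histidine synthesis, had -2.88, 3.01 and -0.81 on replicates 1 to 3. ARO3, of aromatic amino acid synthesis, had -2.11, 3.77 and -0.65, while ARO7 had -0.43, 0.03 and 2.84. These genes were picked after their values were seen, and their pathways were not summarised here. The part of any of these pathways in the carriers' replicate 2 values was not tested.

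**Figure D3:**
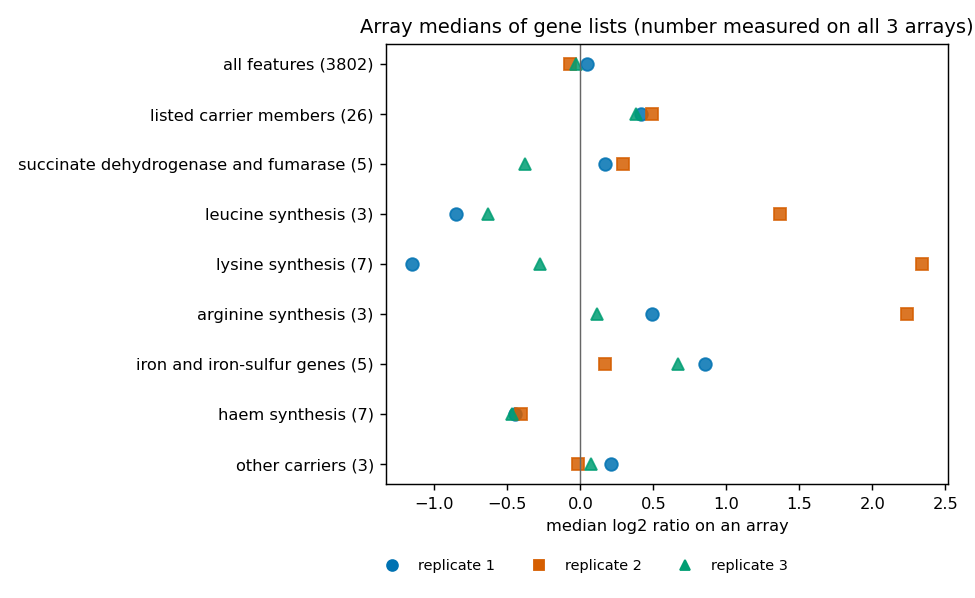
Median log2 ratio on each array (horizontal axis) for all features, the listed carrier genes and 7 lists of genes that share substrates or fold with the carriers, each with at least 3 genes measured on all 3 arrays (number in brackets); circles, squares and triangles are replicates 1, 2 and 3. The replicate 2 medians of leucine (1.37), lysine (2.34) and arginine synthesis (2.24) lie far above those of the other arrays, while the medians of the 26 listed genes, which include 5 outside the carrier family, lie between 0.38 and 0.49.

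Over the 12 lists of partner genes, 41 of 59 genes were tested; 3 rose (LEU2, STF2 and ISU1) and 1 fell (HEM15), beside 7.86% of all features, and their median was 0.19. STF2, known as a stabilising factor of the inhibited ATP synthase, was at 1.60, 1.47 and 1.37 (mean 1.48 ± 0.11, limma adjusted p = 0.0277), and INH1, the ATP synthase inhibitor, was at -0.05 ± 0.46. ISU1, a scaffold of iron-sulfur cluster assembly, which uses the iron that MRS3 and MRS4 deliver, was at 1.40, 1.65 and 1.33 (mean 1.46 ± 0.17, limma adjusted p = 0.0277). The other 4 tested genes of that iron list did not pass, and its paralogue ISU2 was at 0.01 ± 0.15. Both STF2 and ISU1 were high on each array and close between arrays.

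Haem synthesis genes, served by HEM25, had a median of -0.47 over 7 of 7 tested, with array medians of -0.45, -0.40 and -0.47. HEM15, the ferrochelatase that puts iron into haem, fell, with -2.27, -0.86 and -1.19 (mean -1.44 ± 0.74, limma adjusted p = 0.0473), and 5 of the 7 were below 0 on all 3 arrays beside 27.1% of features. HEM1, which uses the glycine, was at -0.76, -0.40 and -2.07 and did not pass (limma adjusted p = 0.106). HEM25 was above 0 on the arrays where HEM1 and HEM15 were below 0. HEM14, of the same haem list, was above 0 on each array as well, at 0.58, 0.41 and 0.48, and did not pass (limma adjusted p = 0.240).

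Several of the remaining partner lists were measured in part. Of the carnitine acetyltransferases, which load acetyl units on carnitine, YAT2 was tested (0.27, 1.64 and 0.59, limma adjusted p = 0.147) and did not pass, CAT2 had 0.28 on replicate 2 and 1.11 on replicate 3, and YAT1 had no value. Of the glyoxylate cycle and gluconeogenesis genes, listed as partners of succinate and fumarate exchange, 2 of 5 were tested and neither passed. MDH2, the cytosolic malate dehydrogenase, had the larger mean (1.20 ± 0.53, limma adjusted p = 0.0563). The mitochondrial pyruvate carrier, which belongs to another protein family, had MPC2 at 1.84, 2.34 and 0.07 (limma adjusted p = 0.0906) and MPC1 at -0.33, -0.09 and -0.30. Neither gene passed. MPC3, of the same list, had 1.92 on replicate 1, 0.82 on replicate 2 and no value on replicate 3. The 5 genes of succinate dehydrogenase and fumarase had a median of 0.17 and none passed, and SDH2 had the mean farthest from 0 (-0.84 ± 0.99). Of the 3 tested further genes of the carrier fold, none passed and MRX21 had the mean farthest from 0 (0.32 ± 0.53). SAM1, a synthetase of the S-adenosylmethionine that PET8 imports, was at -0.16 ± 0.40 and did not pass.

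Related genes with like substrates were compared by the difference of their log2 ratios within each array. Of 9 pairs, 8 had values for both genes. With 3 arrays an exact two-sided sign-flip permutation test cannot go below p = 0.25, and with 2 arrays not below p = 0.5, so no pair could pass (exact p = 0.25 to exact p = 1, adjusted over 8 pairs 0.571 to 1). The pair MIR1 minus PIC2 had the smallest spread, with a mean difference of -1.16 ± 0.10 (n = 3). MRS3 minus MRS4 was -1.92, -0.47 and -0.88, with a mean of -1.09 ± 0.75, so the difference had 1 sign on all 3 arrays and varied in size. PET9 minus AAC3 was also below 0 on all 3 arrays (-0.42 ± 0.37).

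For the other pairs the arrays differed or were fewer. ODC1 minus ODC2 was 0.72, -1.98 and 0.26, so its sign on replicate 2 was opposite to that on replicates 1 and 3. POR1 minus POR2 was 0.36, -0.16 and 0.38 (mean 0.19 ± 0.31). On the 2 arrays with both values, PET9 minus AAC1 was -2.15 and -0.66, AAC1 minus AAC3 was 1.97 and 0.42, and YIA6 minus YEA6 was 1.00 and 0.42. Transcripts of near-identical paralogues may share signal on a probe, and the probe sequences were not used here, so the part of shared signal in these differences was not tested.

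**Figure D4:**
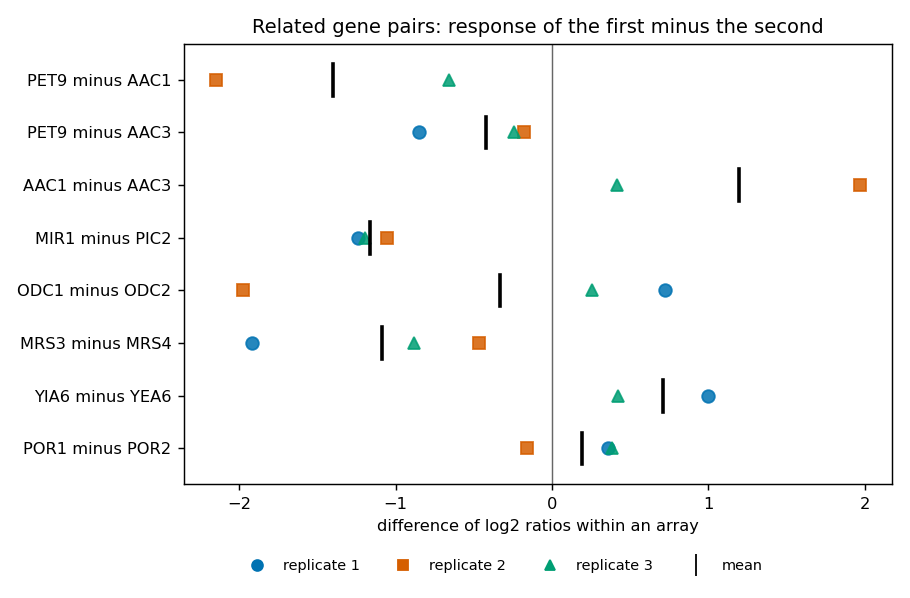
Difference of log2 ratios within an array between the first and second gene of 8 related pairs (horizontal axis); circles, squares and triangles are replicates 1, 2 and 3, and the black bar is the mean of the arrays with both values. MIR1 minus PIC2 lies between -1.24 and -1.06 on all 3 arrays, and ODC1 minus ODC2 has its replicate 2 value at -1.98 on the other side of 0 from the other two arrays.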

How the data were processed

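The authors deposited log ratios, read here as log2, for 6272 probes on 3 arrays, with LOWESS normalization over spots of flag value 0, per the labels. Scanner, background correction, log base and direction are not given in the sources used here, no intensities were used, and why a value is missing was not stated.

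The platform annotation gave 1 symbol for 5308 probes and none for 964. Symbols were updated by Entrez identifier to the R64 gene table. Probes of 1 gene were averaged. Features with 3 values were tested with limma 3.58.1 (R 4.3.3; lmFit, eBayes, intercept only, two-sided, Benjamini-Hochberg over 3802 features), after a test on simulated data. SDs are over arrays, whose number limits the precision. A planned sequence description was not made.

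Members, partner lists and pairs were chosen with earlier results of these data known. All listed members are named; values on each array are given for those past the threshold, the 10 largest means and measured pairs, and partner genes are named where past the threshold or largest in their list. Partners CAT2, YAT1, INH1, ISU2, HEM1, HEM14, MPC1, MPC3, LEU1 and LEU9 and further members' values were added after they were seen. ARG2 and ARG8 are named to show which arginine synthesis genes were tested. HIS4, ARO3 and ARO7, which are in no partner list, were also added after they were seen. Alternatives were centring, scale, quantile normalization, missing-value rule, moderation, array weights, sub-grid medians, first probe, thresholds, leaving out each array and the family genes alone.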

Additional observations from a re-analysis of the deposited data

How the results depend on the processing

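Each array holds both treated and untreated RNA, so each log ratio is already a paired comparison within an array. With 1 group of arrays no further pairing was possible. The counts of limma calls depended on the arrays and on the moderation. Over all features, 299 became 0 to 657 when 1 array was left out (11 if replicate 1 was dropped, 657 if replicate 2 was, and 0 if replicate 3 was, with 878 at an unadjusted p under 0.05), 1 without moderation, 4 in the test against a 1.5-fold change, and 0 at an adjusted p under 0.01 (1129 at an unadjusted p under 0.05). Among the listed genes, 2 became 0 to 6 when 1 array was left out. It was 0 without replicate 1 and without replicate 3 (7 and 10 at an unadjusted p under 0.05), and 6 without replicate 2 (CRC1, DIC1, AIM46, PIC2, POR1 and TPC1), where 7.31% of all features were called higher. It was 4 after quantile normalization and 5 with sub-grid medians subtracted, and 0 without moderation (5 at an unadjusted p under 0.05), against a 1.5-fold change (3) and at 0.01 (8). CRC1 and DIC1 passed in each of the other settings run. The median of the listed genes, 0.48, was 0.60 with values on at least 2 arrays, 0.36 for the family alone, and 0.30 to 0.52 with 1 array left out (0.30 without replicate 2). Of 90 values of the 10 largest members under 9 settings, 76 kept direction and side of the threshold, 10 passed newly, 4 no longer passed and 0 turned. The cause of these shifts was not tested. Signal over background was unknown.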

Other observations

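The chromosomal neighbours of the carriers that rose were looked up in the reference gene order, a comparison chosen after CRC1 and DIC1 were known to pass. The 4 nearest protein-coding neighbours, KTR1 and RAS1 beside CRC1 and KAP95 and ORM2 beside DIC1, were all tested and none passed, with means from -0.94 to 0.83 (limma adjusted p = 0.0743 to limma adjusted p = 0.505). RAS1, a small GTPase gene, had log2 ratios of -0.71, -0.33 and 3.54 on replicates 1 to 3, so replicate 3 alone was high there. KTR1, which encodes a mannosyltransferase, was below 0 on all 3 arrays, at -0.69, -0.85 and -1.28.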
